A study of Mus musculus with 24 samples.

Results

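The 10 genes described here are Esr1, Camk2a and 8 neighbours of Camk2a on mouse chromosome 18, which are Arsi, Slc6a7, Cdx1, Tcof1, Cd74, Rps14, Pdgfrb and Ndst1, out of 55471 genes in the count table. They were chosen by measured values together with position. The measured values are the count differences between CBP-ifKOs and control littermates in these libraries, and the positions are those next to Camk2a, whose sequences drive creERT2 in the CBP-ifKOs. Genotype differences of the 10 genes are therefore given as a description without a test, and the 10 were tested only for housing and for the interaction of genotype and housing. Genotype tests were made for other genes, picked by position or taken from lists of related genes and cell type markers.

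The study asked how the loss of the coactivator CBP in adult excitatory neurons alters the response of the hippocampus to experience. RNA of the whole hippocampus was sequenced from 12 female mice on the C57BL/6J background, aged between 3 and 6 months, with 3 mice in each of 4 groups and 2 sequencing runs per mouse that were merged into 1 library. CBP-ifKOs carried homozygous floxed Crebbp alleles and the Camk2a-creERT2 transgene, and their control littermates did not carry creERT2. Both genotypes received tamoxifen, a ligand of the estrogen receptor, in 5 intragastric administrations at 20 mg/ml in corn oil. Mice of each genotype were housed in standard cages (SC) or under environmental enrichment (EE), so the groups are SC controls, SC CBP-ifKOs, EE controls and EE CBP-ifKOs.

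The driver limits what the groups can separate. The transgene was built from a bacterial artificial chromosome that holds a piece of the Camk2a locus, creERT2 is made in excitatory neurons of the forebrain, and every CBP-ifKO carries it whereas no control does. Loss of CBP and carriage of the transgene cannot be told apart in these libraries. In bulk tissue, fewer cells of a type and less RNA per cell cannot be told apart either.

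CreERT2 joins Cre recombinase to a mutated ligand-binding domain of the estrogen receptor, which holds the enzyme in the cytoplasm until tamoxifen lets it enter the nucleus. Esr1 encodes estrogen receptor alpha, a nuclear receptor that in the hippocampus is found mainly in a minority of neurons and glia. Camk2a encodes the alpha subunit of calcium/calmodulin-dependent protein kinase II, one of the most abundant proteins of excitatory synapses, and large constructs with its flanking sequences are used to direct transgenes to forebrain neurons.

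The deposited counts summed to between 26874015 and 27971488 counts in controls and between 28582210 and 37448388 counts in CBP-ifKOs. Every CBP-ifKO count was even, whereas odd counts made up 54% to 55.1% of those above 0 in a control library, so if reads were counted more than once there, the totals of the CBP-ifKOs overstate their depth and their counting error is understated. The floor used for a single library was 3 counts, or from 0.0801 to 0.112 counts per 1000000 of the library total, and would be too low for the CBP-ifKOs in that case. Levels of genes are given as CPM, which are counts scaled to the library total with TMM factors over all 12 libraries.

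Crebbp, the floxed gene, was examined first as a check of the labels. It stood at 73.9, 81.9 and 70.7 CPM in SC controls and at 50.5, 51.5 and 50.0 CPM in SC CBP-ifKOs. In EE it stood at 72.3, 77.1 and 69.6 CPM in controls and at 44.5, 48.3 and 46.7 CPM in CBP-ifKOs. Every CBP-ifKO lay below every control. The log2 fold change was -0.58 (SE 0.06, adjusted p = 5.42e-04, edgeR) in SC and -0.64 (SE 0.06, adjusted p = 4.07e-04, edgeR) in EE. Its paralog Ep300, which encodes p300, had log2 fold changes of 0.18 (SE 0.11, adjusted p = 0.394, edgeR) in SC and 0.07 (SE 0.11, adjusted p = 0.775, edgeR) in EE, and without the library of SC control 2 the SC value was 0.36 with an adjusted p of 0.00593 (edgeR).

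The markers of hippocampal excitatory neurons were abundant in every library. The summed level of the 7 markers, led by the vesicular glutamate transporter Slc17a7, was 2304, 2050 and 2164 CPM in SC controls and 2088, 2201 and 2051 CPM in SC CBP-ifKOs. It was 2186, 2299 and 2325 CPM in EE controls and 2027, 2231 and 2149 CPM in EE CBP-ifKOs. The genotypes overlapped in both housings. The 6 hypothalamic markers summed to between 1.07 and 1.81 CPM in a library, as a check that little hypothalamus was dissected with the tissue.

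Esr1 (ENSMUSG00000019768, chromosome 10 from 4611593 to 5005614 of GRCm38) was low in controls and high in CBP-ifKOs. SC controls had 4.49, 5.81 and 4.13 CPM, from 121, 154 and 114 counts, and SC CBP-ifKOs had 71.7, 78.8 and 73.9 CPM, from 2400, 2278 and 2792 counts. EE controls had 4.37, 5.32 and 3.47 CPM and EE CBP-ifKOs had 67.0, 81.6 and 80.4 CPM. The lowest CBP-ifKO thus lay far above the highest control, with no overlap in either housing. The log2 fold change was 3.96 (SE 0.10) in SC and 4.13 (SE 0.13) in EE, a difference of 15.5-fold and 17.5-fold. Ordered from the highest increase, Esr1 ranked 2 of the 17532 genes measured in SC and 2 of the 17625 measured in EE, and by size in either direction it ranked 2 and 3. The counts are sums over the exons of a gene, and reads from the ligand-binding domain of creERT2 and reads from the mouse gene cannot be told apart in them.

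Esr1 was also set against the Camk2a level of the same mouse, which did not bring the 6 CBP-ifKOs closer together. Per kilobase of transcript, Esr1 stood at 0.908%, 1.01% and 1.01% of the Camk2a level in SC CBP-ifKOs and at 0.998%, 1.04% and 1.16% in EE CBP-ifKOs. In controls the same share was 0.0587%, 0.0779% and 0.0561% in SC and 0.0595%, 0.0677% and 0.0437% in EE. The highest control thus lay below the lowest CBP-ifKO, and the mouse with the least Esr1 among the CBP-ifKOs, EE replicate 1, was also the one with the least Camk2a. Other CBP-ifKOs went the other way. EE replicate 3 had 3792 CPM of Camk2a with 80.4 CPM of Esr1, and SC replicate 1 had 4313 CPM with 71.7 CPM. The length used is that of the whole Esr1 gene model, 13661 bases, so the share is too low if the reads fell on a part of it only. Of the 13697 stretches of 50 bases in Esr1 transcripts, 0.336% also occur in another gene, Ppp2r5a.

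Arsi (ENSMUSG00000036412), which encodes arylsulfatase I, a member of the sulfatase family, is the nearest gene outside Camk2a. It lies on chromosome 18 from 60911780 to 60918561, 7.06 kb below the start of Camk2a and on the same strand. SC controls had 0.964, 1.21 and 1.23 CPM, from 26, 32 and 34 counts, and SC CBP-ifKOs had 8.18, 7.54 and 5.03 CPM, from 274, 218 and 190 counts. EE controls had 0.698, 1.20 and 1.10 CPM and EE CBP-ifKOs had 5.37, 6.51 and 6.81 CPM. The genotypes did not overlap, and the spread within the CBP-ifKOs was wider in SC, where replicate 3 was the lowest of the 6. The fitted difference was 6.06-fold in SC (SE 0.22 on the log2 scale) and 6.27-fold in EE (SE 0.21 on the log2 scale), which placed Arsi at rank 4 in SC and rank 3 in EE among genes ordered from the highest increase, and at rank 5 and rank 10 by size in either direction. None of its stretches of 50 bases occurs in another gene.

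Esr1 and Arsi were both higher in every CBP-ifKO, but not in a fixed proportion. Taken as the excess over the mean of the controls in the same housing and per kilobase, Esr1 exceeded Arsi by a ratio of 2.07, 2.52 and 3.86 in the SC CBP-ifKOs. In the EE CBP-ifKOs the ratio was 3.12, 3.05 and 2.85. The high and the low value both come from SC, where Esr1 varied little between mice and Arsi varied most. These ratios too would be higher if the Esr1 reads fell on a part of the gene model.

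**Figure D1:**
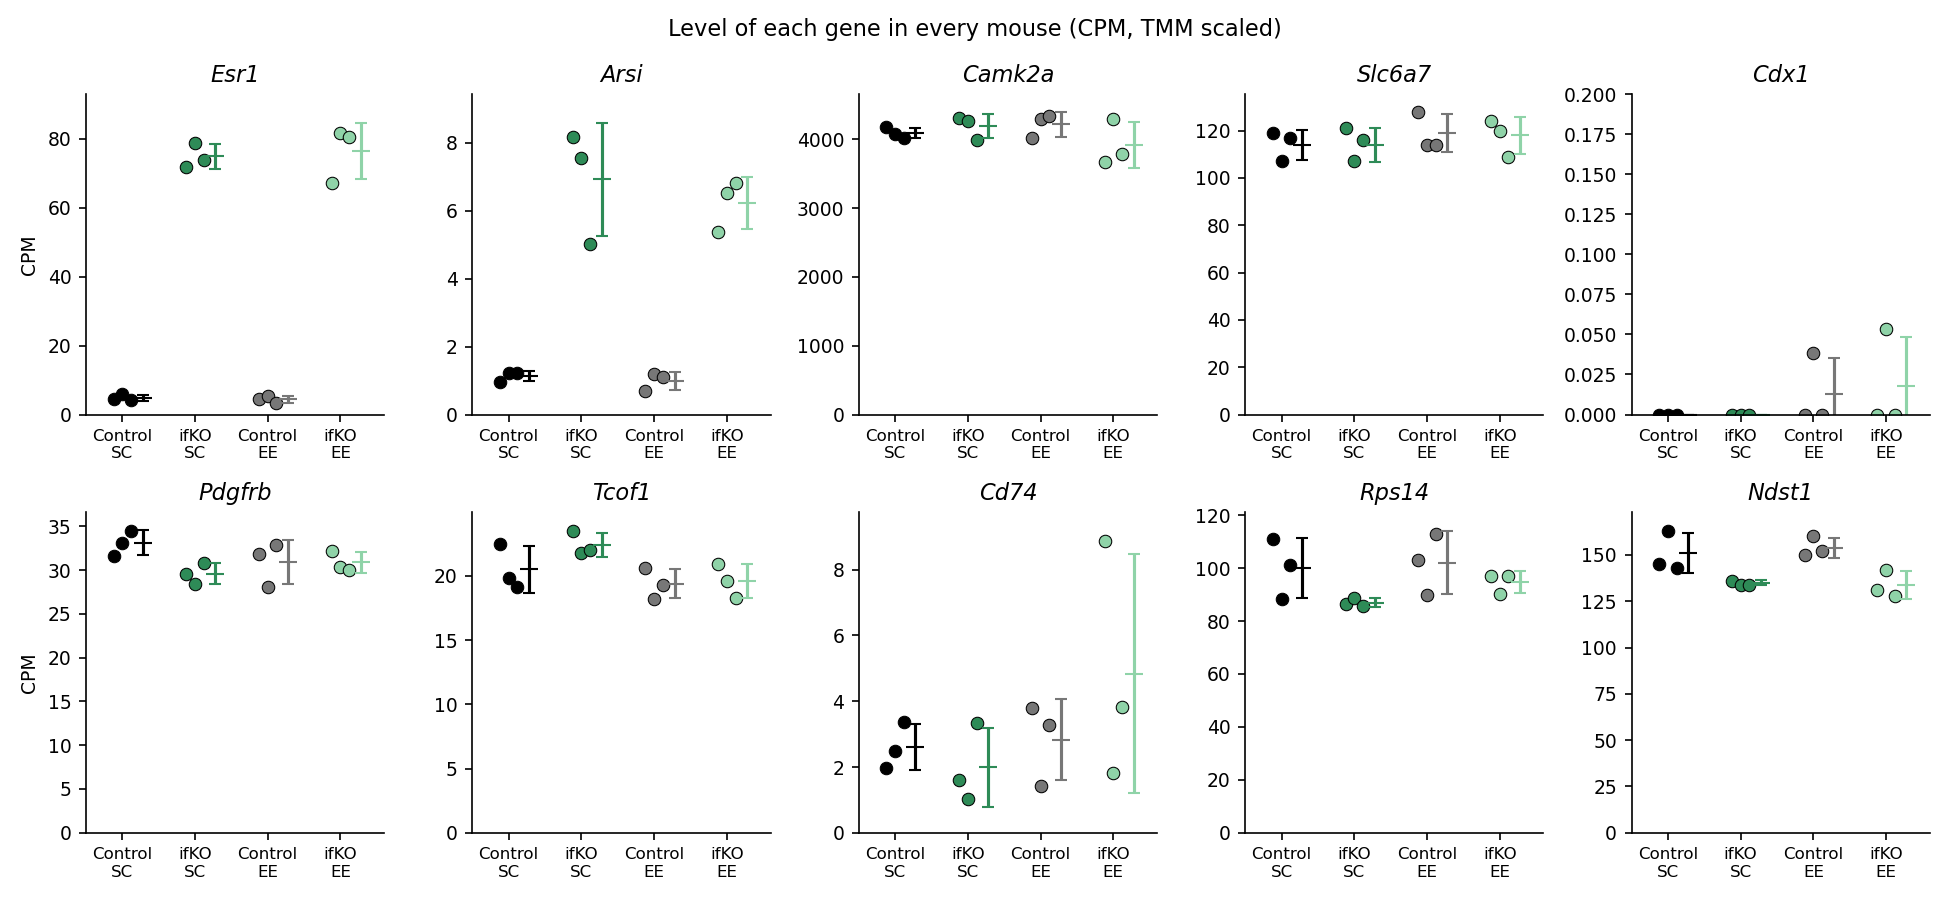
Level of each of the 10 genes in every mouse, in CPM on linear axes that start at 0, with 1 point per mouse and the mean ± SD (n = 3) beside each group (black and grey, controls in SC and EE; dark and light green, CBP-ifKOs in SC and EE). The CBP-ifKOs lie above 60 CPM for Esr1 and above 5 CPM for Arsi in both housings, whereas the genotypes overlap for Camk2a and Slc6a7.

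The likeness of other genes to Esr1 and to Arsi was measured as the mean absolute difference of log2 CPM over the 12 mice, with each gene centred on the SC controls, among 18251 genes. The nearest genes to Esr1 were the pseudogene Gm13712 (0.74), Arsi (0.89), the lincRNA Gm17746 (1.08), the pseudogene Gm6472 (1.28) and Insm2 (1.33), a zinc finger gene. The nearest to Arsi were Insm2 (0.45), Gm13712 (0.47), Selenov (0.61), which encodes a selenoprotein, Gm17746 (0.61) and Gm6472 (0.62). A gene with no change from the SC controls would lie at 2.09 from Esr1 and at 1.33 from Arsi. With this centring the measure largely follows the genotype difference by which Esr1 and Arsi were chosen. The nearness of Arsi to Esr1 is therefore a description and not a separate result. A prior count of 2 was used for log2 CPM, and several of these genes rest on few reads. Gm13712 had 24, 8 and 2 counts in SC CBP-ifKOs, 24, 18 and 14 counts in EE CBP-ifKOs and 0 counts in the 6 controls. It thus passed the filter through the CBP-ifKOs alone. In SC, Gm17746 had 0, 0 and 1 counts in controls and 12, 14 and 26 in CBP-ifKOs, and Insm2 had 2, 2 and 4 counts in controls and 18, 12 and 22 in CBP-ifKOs. In EE the genotypes overlapped for Gm17746, with 0 counts in CBP-ifKO 3, and for Gm6472, with 9.68 CPM in control 2 and 1.94 CPM in CBP-ifKO 3. None of these genes other than Arsi is on chromosome 18.

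Camk2a itself (ENSMUSG00000024617, chromosome 18 from 60925618 to 60988152) showed no such separation. SC controls had 4175, 4077 and 4024 CPM and SC CBP-ifKOs had 4313, 4275 and 3987 CPM. EE controls had 4014, 4299 and 4343 CPM and EE CBP-ifKOs had 3665, 4292 and 3792 CPM. The genotypes overlapped in both housings, and Camk2a took between 0.379% and 0.439% of all counts in each of the 12 libraries. The log2 fold change was 0.03 (SE 0.05) in SC and -0.10 (SE 0.06) in EE. The excess of Esr1 over the controls was between 62.6 and 77.2 CPM in the 6 CBP-ifKOs, beside SDs of Camk2a of 76.7 CPM in SC controls, 178 CPM in SC CBP-ifKOs, 179 CPM in EE controls and 331 CPM in EE CBP-ifKOs.

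The microRNA genes Mir7220 and Mir6982 are annotated within Camk2a outside its exons and had 131 counts each over all 12 libraries. Mir6982 had 0.260, 0.377 and 0.218 CPM in SC controls and 0.597, 0.761 and 0.212 CPM in SC CBP-ifKOs, and its log2 fold change of 0.84 (SE 0.52) did not pass the test (adjusted p = 0.398, edgeR). In EE it had 0.294, 0.309 and 0.439 CPM in controls and 0.155, 0.427 and 0.235 CPM in CBP-ifKOs. There it did not pass the filter for the comparison of genotypes. Mir7220 did not pass the filter for the comparison of genotypes in SC. In EE its log2 fold change was 0.32 (SE 0.45, adjusted p = 0.747, edgeR). Reads of 50 bases on a hairpin cannot be told apart from unspliced Camk2a RNA.

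On the other side of Camk2a, 7.23 kb above its end, lies Slc6a7, which encodes the sodium-dependent proline transporter of glutamatergic terminals. It is about as far from Camk2a as Arsi. SC controls had 119, 107 and 117 CPM and SC CBP-ifKOs had 121, 107 and 116 CPM. EE controls had 128, 114 and 114 CPM and EE CBP-ifKOs had 124, 120 and 109 CPM. The values of the genotypes overlapped in both housings, with log2 fold changes of 0.01 (SE 0.06) in SC and 0.00 (SE 0.07) in EE.

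Cdx1, a caudal homeobox transcription factor of the intestine and of axial patterning, lies 30.7 kb above Camk2a. It had 3 counts in all, 1 in an EE control and 2 in an EE CBP-ifKO, and 0 counts in the other 10 mice. Both genotypes were at or under the floor, and Cdx1 did not pass the filter on low counts. Its relatives Cdx2 and Cdx4, named after their values were seen, did not pass it either.

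Pdgfrb, the receptor for platelet-derived growth factor B on pericytes, lies 57 kb above Camk2a. SC controls had 31.6, 33.1 and 34.5 CPM and SC CBP-ifKOs had 29.6, 28.4 and 30.8 CPM. EE controls had 31.8, 28.1 and 32.9 CPM and EE CBP-ifKOs had 32.2, 30.4 and 30.0 CPM. The SC groups did not overlap, by a narrow gap, and the EE groups did. Its log2 fold changes were -0.16 (SE 0.07) in SC and 0.01 (SE 0.08) in EE. The summed level of the 7 pericyte markers, led by Rgs5, was 271, 255 and 267 CPM in SC controls and 228, 208 and 213 CPM in SC CBP-ifKOs, with none of these markers at 0. In EE that sum was 250, 230 and 251 CPM in controls and 261, 229 and 239 CPM in CBP-ifKOs. The part of pericytes in the Pdgfrb values was not tested.

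Below Camk2a the next genes are Tcof1 and Cd74. Tcof1, which encodes treacle, a nucleolar protein of ribosomal RNA synthesis, lies at 76.6 kb and had 20.5 ± 1.80 CPM (SD, n = 3) in SC controls and 22.4 ± 0.949 CPM in SC CBP-ifKOs. In EE it had 19.4 ± 1.16 CPM in controls and 19.6 ± 1.30 CPM in CBP-ifKOs. Its genotypes overlapped in both housings, with log2 fold changes of 0.13 (SE 0.08) and 0.03 (SE 0.09).

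Cd74, the invariant chain that guides class II molecules of the major histocompatibility complex (MHC) through antigen-presenting cells, lies at 113 kb and varied more between the mice of each group than the other 8 genes that passed the filter. SC controls had 1.97, 2.49 and 3.37 CPM and SC CBP-ifKOs had 1.61, 1.04 and 3.33 CPM. EE controls had 3.78, 1.43 and 3.29 CPM and EE CBP-ifKOs had 8.88, 1.81 and 3.82 CPM. The genotypes overlapped in both housings, and 1 mouse, EE CBP-ifKO 1, stood above the other 11. The log2 fold change was -0.36 (SE 0.35) in SC and 0.78 (SE 0.49) in EE, and without that mouse the EE value was -0.01 (SE 0.38). The SC value also rested on single mice, with -0.97 without CBP-ifKO 3, -0.07 without CBP-ifKO 2 and -0.13 without control 3.

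The class II genes H2-Aa and H2-Eb1, which encode chains of the molecules that Cd74 binds, were highest in the same mouse. H2-Aa had 7.80 CPM in EE CBP-ifKO 1 and between 0.623 and 2.58 CPM in the other 11. H2-Eb1 had 4.29 CPM there and between 0.346 and 2.54 CPM elsewhere. H2-Ab1 of the same list, named after its values were seen, had 4.03 CPM there and between 0.519 and 1.58 CPM elsewhere. With a replicate block H2-Ab1 was called between genotypes in EE (edgeR). H2-DMa and Ctss of the class II list did not stand out in that way. H2-DMa had 11.5 ± 0.372 CPM in EE CBP-ifKOs and 14.7 ± 2.2 CPM in EE controls (SD, n = 3). Ctss had 74 ± 4.27 and 71.4 ± 7.49 CPM. The microglial markers were not highest in EE CBP-ifKO 1. Their sum over 5 genes, led by Cx3cr1 with none at 0, was 140 CPM in EE CBP-ifKO 1 and between 138 and 167 CPM in the other libraries. The source of the Cd74 counts in that mouse was not tested further. An exon of Cd74 also overlaps Mir5107 on the same strand, which had 1 count in all.

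Rps14 and Ndst1 are the farthest of the neighbours. Rps14, a protein of the small ribosomal subunit at 147 kb, had 100 ± 11.3 CPM in SC controls, 86.9 ± 1.62 CPM in SC CBP-ifKOs, 102 ± 11.9 CPM in EE controls and 94.8 ± 4.04 CPM in EE CBP-ifKOs (SD, n = 3 each). Its log2 fold changes were -0.20 (SE 0.07) in SC and -0.10 (SE 0.08) in EE, and the genotypes overlapped. Over the 13 alternatives they lay between -0.29 and -0.12 in SC and between -0.18 and -0.01 in EE. These values are uncertain because 8.52% of its stretches of 50 bases also occur in the pseudogenes Gm5805 and Gm6204.

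Ndst1, an enzyme that deacetylates and sulfates heparan sulfate, lies at 177 kb. SC controls had 145, 163 and 143 CPM and SC CBP-ifKOs had 136, 134 and 134 CPM. EE controls had 150, 160 and 152 CPM and EE CBP-ifKOs had 131, 142 and 128 CPM. Every CBP-ifKO was below every control of its housing, by a small margin. The log2 fold change was -0.16 (SE 0.06) in SC, and -0.10 without control 2, and -0.19 (SE 0.06) in EE, and 22.9% and 17.8% of the measured genes had a lower value in the same comparison.

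Among the named neighbours that passed the filter, size of the genotype difference did not fall steadily with distance from Camk2a. Arsi and Slc6a7, at 7.06 kb and 7.23 kb, had SC differences of 6.06-fold and, on the log2 scale, 0.01. In EE these were 6.27-fold and 0.00. The EE log2 fold changes from 57 kb outward lay between -0.19 for Ndst1 and 0.03 for Tcof1, apart from Cd74. That gene had 0.78, and -0.01 without EE CBP-ifKO 1. From 57 kb outward the SC log2 fold changes lay between -0.20 for Rps14 and 0.13 for Tcof1, apart from the -0.36 of Cd74, which was between -0.97 and -0.07 over the 13 alternatives, and the median absolute value over all genes measured in SC was 0.13.

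Per kilobase of transcript, the order of the levels in SC controls was Camk2a at 548 ± 10.3 CPM per kb, Rps14 at 41.8 ± 4.73, Slc6a7 at 33.1 ± 1.88, Ndst1 at 18.2 ± 1.32, Pdgfrb at 6.04 ± 0.261, Tcof1 at 3.89 ± 0.342, Cd74 at 1.55 ± 0.424, Arsi at 0.382 ± 0.0499 and Esr1 at 0.352 ± 0.0648 (SD, n = 3), with Cdx1 at 0. Only Arsi and Esr1 overlapped as neighbours in that order. In SC CBP-ifKOs, Esr1 at 5.47 ± 0.266 CPM per kb stood beside Pdgfrb at 5.40 ± 0.217, and Arsi at 2.33 ± 0.561 beside Cd74 at 1.19 ± 0.712, and both pairs overlapped. The order in EE controls was the same as in SC controls. In EE CBP-ifKOs, Pdgfrb at 5.63 ± 0.218 and Esr1 at 5.59 ± 0.595 overlapped, as did Cd74 at 2.88 ± 2.17 with Tcof1 at 3.72 ± 0.247 above it and Arsi at 2.09 ± 0.255 below it. The Esr1 values per kilobase use the length of the whole gene model, so those of the CBP-ifKOs and their place in the order are too low if the reads fell on a part of it.

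The remaining genes of the region were selected by position alone, so their genotype difference could be tested. Within 1 Mb of Camk2a on either side the annotation holds 48 other genes, of which 22 encode proteins and 5 had 0 counts in every library. In SC, 20 passed the filter and 0 were called at an adjusted p under 0.05 (edgeR; 5.52% of all genes were called), with 3 at an unadjusted p under 0.05 and 0 called by DESeq2. Their log2 fold changes lay between -0.48 and 0.84, the latter for Mir6982, with a median of -0.01.

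In EE, 1 of 20 was called (edgeR; 4.57% of all genes were called). It was Synpo, 265 kb below Camk2a, which encodes synaptopodin, an actin-associated protein of the spine apparatus. Synpo fell from 183, 195 and 190 CPM in EE controls to 142, 147 and 143 CPM in EE CBP-ifKOs, without overlap. Its log2 fold change was -0.38 (SE 0.06, adjusted p = 0.00413, edgeR) in EE and -0.21 (SE 0.08, adjusted p = 0.144, edgeR) in SC, where it was -0.12 without control 1 and was called with no filter on low counts (adjusted p = 0.0232, edgeR). Csf1r, the receptor of microglia for colony-stimulating factor 1 and the nearest other gene above Camk2a at 112 kb, had log2 fold changes of -0.04 (SE 0.05, adjusted p = 0.733, edgeR) in SC and -0.19 (SE 0.06, adjusted p = 0.0885, edgeR) in EE. It was called in EE by DESeq2, with all 12 mice in the fit and without EE control 2, where its adjusted p was 0.0283 (edgeR), which made the count 2. The sum of the 5 microglial markers was 167, 146 and 163 CPM in EE controls and 140, 143 and 146 CPM in EE CBP-ifKOs, and the part of microglia in the Csf1r values was not tested. The nearest other gene below, Mir5107, did not pass the filter. Among the genes of the region that passed the filter, Arsi was the only one with a log2 fold change above 0.84 in either housing.

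**Figure D2:**
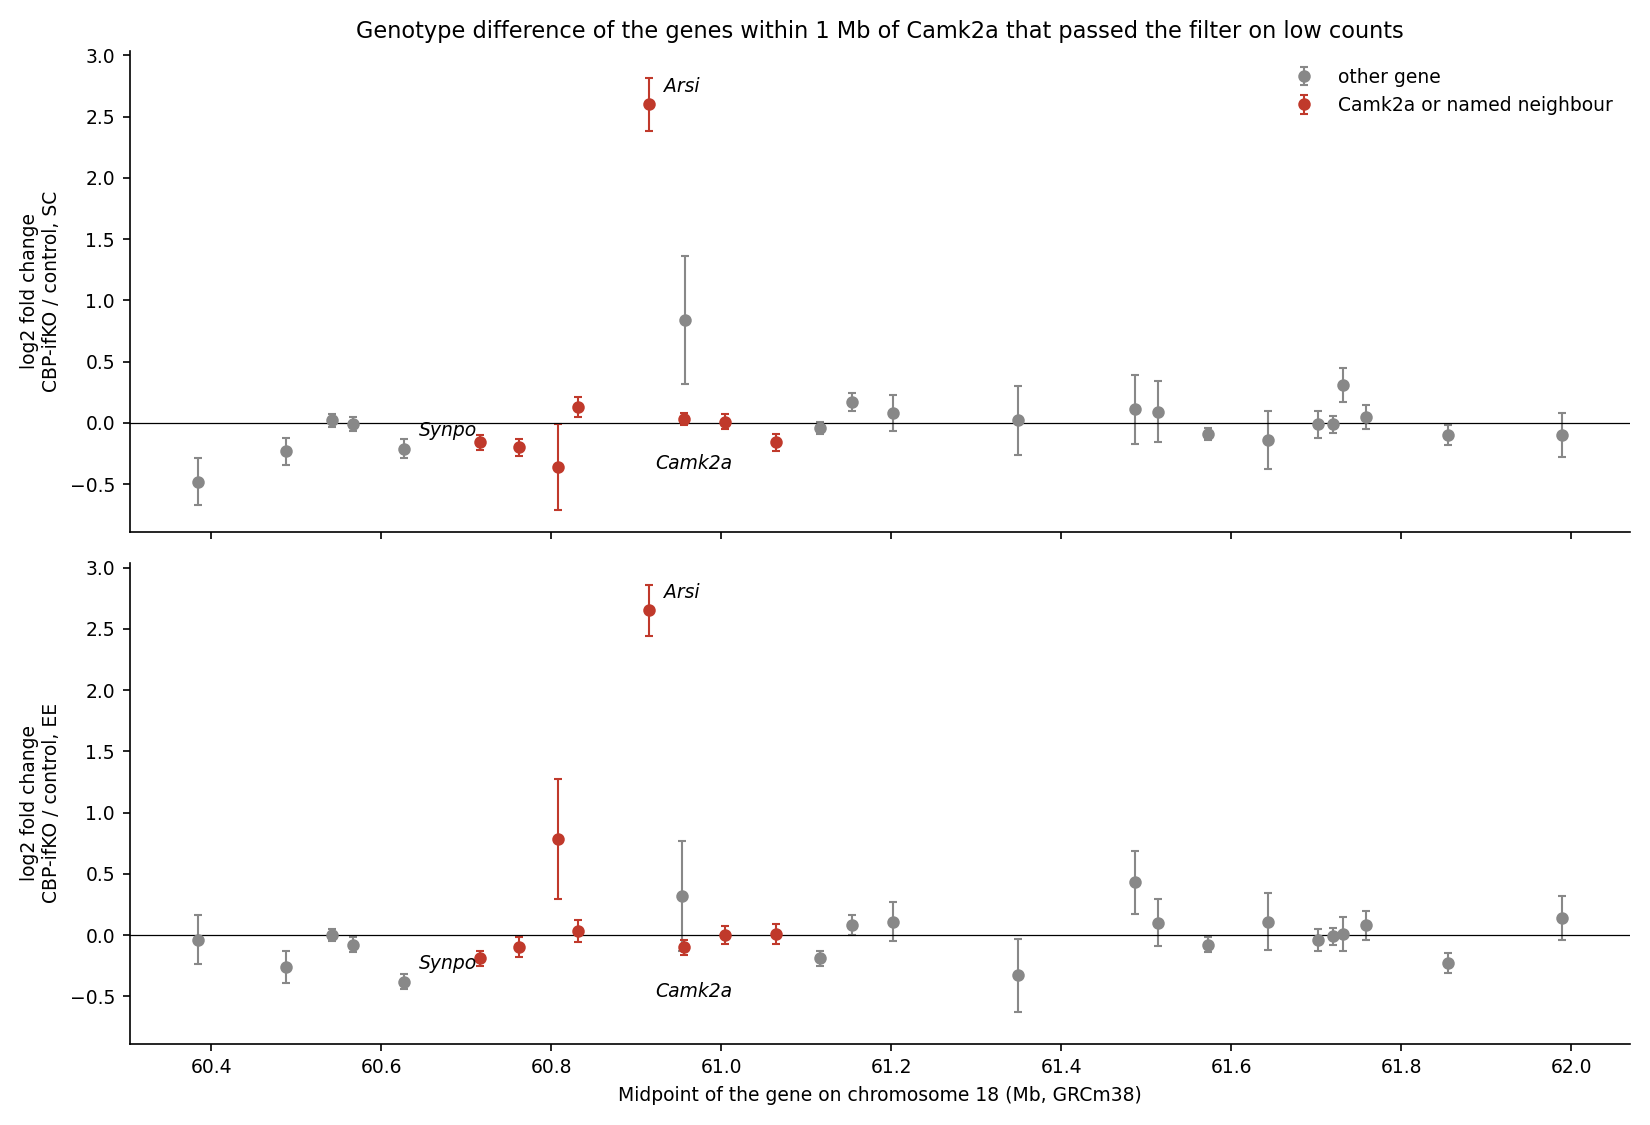
Log2 fold change between CBP-ifKOs and controls (points, with bars of ± 1 SE, n = 3 mice per group) against the midpoint of each gene on chromosome 18 of GRCm38, for the genes within 1 Mb of Camk2a that passed the filter, in SC (upper panel) and EE (lower panel). Camk2a and its 7 named neighbours that passed are red and other genes are grey, and Arsi stands above all others in both panels.

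Housing was not part of the choice of the 10 genes, and their response to EE was tested in all 12 mice. Of the 9 that passed the filter, 0 were called between EE and SC in controls (edgeR; 0% of 18251 genes called), with 0 at an unadjusted p under 0.05 and 0 called by DESeq2. In CBP-ifKOs 0 were called (edgeR; 0.011% of genes called), with 2 at an unadjusted p under 0.05, Cd74 and Tcof1, and 0 called by DESeq2. In the interaction 0 were called (edgeR; 0% of genes called), with 0 at an unadjusted p under 0.05 and 0 called by DESeq2. Counts of 0 are what nearly every gene gave in these comparisons, so they say little about these 9 in particular.

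For Esr1 the log2 fold change of EE over SC was 0.03 (SE 0.10, adjusted p = 0.960, edgeR) in CBP-ifKOs and -0.13 (SE 0.16, adjusted p = 0.999, edgeR) in controls, and the interaction was 0.16 (SE 0.19). For Arsi it was -0.15 (SE 0.19, adjusted p = 0.855, edgeR) in CBP-ifKOs and -0.19 (SE 0.27, adjusted p = 0.999, edgeR) in controls, and the interaction was 0.04 (SE 0.32). Camk2a had -0.10 (SE 0.06, adjusted p = 0.649, edgeR) in CBP-ifKOs and 0.04 (SE 0.06, adjusted p = 0.999, edgeR) in controls, and the interaction was -0.14 (SE 0.08, adjusted p = 1, edgeR).

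Cd74 had the largest housing estimate, 1.25 (SE 0.49, adjusted p = 0.506, edgeR) in CBP-ifKOs, and without EE CBP-ifKO 1 it was 0.47 (SE 0.45, adjusted p = 0.856, edgeR). With no filter on low counts Cd74 was called in CBP-ifKOs (log2 fold change 1.26, adjusted p = 6.74e-07, edgeR) and in the interaction (1.13, adjusted p = 0.0411, edgeR). Tcof1 had -0.20 (SE 0.08, adjusted p = 0.517, edgeR) in CBP-ifKOs, where the 3 EE mice lay below the 3 SC mice.

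The families and pathways of the 10 genes were followed through 10 lists with 78 genes, of which 72 passed the filter in each housing. In SC, 3 were higher in CBP-ifKOs (edgeR; 1.51% of all genes) and 9 were lower (4.02% of all genes). In EE, 2 were higher (edgeR; 1.03% of all genes) and 7 were lower (3.53% of all genes). These shares of all genes stand beside the counts of each single list below as well. The total in SC depended on single mice, and was 5, 3 and 6 without SC CBP-ifKO 1, 2 or 3 and 6, 20 and 4 without SC control 1, 2 or 3. In EE it was 5 without control 3, 14 by DESeq2, 15 with all 12 mice in the fit and 21 with no filter on low counts. Between EE and SC and in the interaction 0 of the 72 were called (edgeR), with 5 in controls, 9 in CBP-ifKOs and 2 in the interaction at an unadjusted p under 0.05 and 0 in each by DESeq2. Igfbp4, Ccnd1 and Camk2n2 were called in SC under all 13 alternatives, and Igfbp4, Ccnd1, Camk2n1, Camk2n2 and Pdgfb were called in EE under all 13.

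The estrogen receptors and their coregulators did not differ as Esr1 did. Of the 10 genes, 8 passed the filter and 0 were called by edgeR in SC (0 at an unadjusted p under 0.05, 0 by DESeq2) or in EE (2 at an unadjusted p under 0.05, 0 by DESeq2). Their median log2 fold changes were -0.06 in SC and -0.07 in EE, beside medians over all genes of 0.00 and 0.01, and lay between -0.10 and -0.03 in SC and between -0.14 and -0.03 in EE when a mouse was left out. The coactivator Ncoa1 had values of 0.00 and -0.05, its relative Ncoa2 had 0.04 and 0.01, and the corepressor Nrip1 had -0.15 and -0.22. Larger values without a call were those of Gper1 and Esrrb, named after their values were seen. Gper1 had -0.41 (SE 0.21) in SC and -0.12 in EE, and Esrrb had -0.30 in SC and -0.70 (SE 0.25) in EE. Esr2, which encodes estrogen receptor beta, and the aromatase gene Cyp19a1, both named after their values were seen, did not pass the filter.

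Of 10 known targets of the estrogen receptor in other tissues, 9 passed the filter. In SC 4 fell (edgeR; 4.02% of all genes were called lower), with a median over the list of -0.28. In EE 3 fell (edgeR; 3.53% of all genes were called lower), with a median of -0.32. The medians over all genes were 0.00 in SC and 0.01 in EE. When a mouse was left out, the SC median of the list lay between -0.44, without CBP-ifKO 2, and -0.23, without control 2. The EE median lay between -0.40, without CBP-ifKO 2, and -0.13, without EE control 1, the mouse with the most choroid plexus RNA. Prlr, the prolactin receptor, named after its values were seen, had 20.0 CPM in that mouse and between 2.85 and 4.03 CPM in the other EE mice. Igfbp4, an insulin-like growth factor binding protein, fell from 88.8 ± 6.92 to 51.4 ± 2.57 CPM (SD, n = 3) in SC, a log2 fold change of -0.79 (SE 0.07, adjusted p = 9.16e-05, edgeR), and by 0.98 on the log2 scale in EE (adjusted p = 3.26e-04, edgeR). Ccnd1, which encodes cyclin D1, fell by 0.61 in SC and 0.53 in EE on the log2 scale, and Rara, a retinoic acid receptor, fell by 0.43 and 0.62. Oxtr, the oxytocin receptor, fell by 0.44 in SC and had -0.32 in EE without a call. In SC, Rara lost its call without CBP-ifKO 1, 2 or 3 or control 1 or 3 (adjusted p = 0.114, 0.0953, 0.0679, 0.0886 and 0.138, edgeR), and in EE without control 3 (adjusted p = 0.0555, edgeR). Oxtr lost its call without SC CBP-ifKO 1, 2 or 3 or control 3 (adjusted p = 0.0636, 0.0748, 0.0922 and 0.121, edgeR). The targets Ctsd, Xbp1 and Pgr had log2 fold changes of -0.05, -0.05 and -0.02 in SC and -0.03, -0.15 and -0.04 in EE. The part of estrogen signalling in these values was not tested.

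Among the other subunits and inhibitors of the Camk2a kinase, 1 of 5 rose and 1 fell in each housing. Camk2n1, an inhibitor protein of the kinase, fell from 843 ± 36.7 to 659 ± 55.8 CPM in SC and from 811 ± 78.7 to 586 ± 42.1 CPM in EE. Camk2n2, the second such inhibitor, rose from 43.2 ± 2.27 to 58.1 ± 2.41 CPM in SC and from 42.7 ± 3.98 to 60.4 ± 1.61 CPM in EE. The log2 fold changes were -0.36 and 0.43 in SC and -0.46 and 0.51 in EE (SE between 0.06 and 0.08; adjusted p = 0.00808, 0.00302, 0.00858 and 0.00439, edgeR). Camk2n1 lost its SC call without CBP-ifKO 2 or 3 (adjusted p = 0.0555 and 0.0502, edgeR). The subunit genes Camk2b, Camk2g and Camk2d had log2 fold changes of -0.10, 0.00 and 0.36 in SC (adjusted p = 0.294, 0.99 and 0.0811, edgeR) and -0.20, -0.02 and 0.43 in EE (adjusted p = 0.0639, 0.883 and 0.0582, edgeR). DESeq2 called 3 of the 5 genes in SC and 4 in EE. With a replicate block Camk2d was called in both housings (edgeR).

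The sulfatase family did not differ as Arsi did. All 13 other enzymes and modifying factors of the list passed the filter, with median log2 fold changes of 0.11 in SC and 0.07 in EE, the latter between -0.03 and 0.09 when a mouse was left out. Sgsh, a lysosomal enzyme of heparan sulfate breakdown, rose from 5.94 ± 0.689 to 8.29 ± 0.418 CPM in SC and from 5.92 ± 0.0795 to 8.17 ± 0.622 CPM in EE (log2 fold changes 0.48 and 0.47, adjusted p = 0.0471 and 0.0497, edgeR). Both calls were marginal, and a replicate block ended both (adjusted p = 0.051 and 0.0515, edgeR) at log2 fold changes of 0.48 and 0.47. Sgsh lost the SC call without CBP-ifKO 1, 2 or 3 or control 1 or 3 (adjusted p = 0.149, 0.0991, 0.112, 0.0658 and 0.184, edgeR). It lost the EE call without any of the 6 mice, which were CBP-ifKO 1, 2 and 3 and control 1, 2 and 3 (adjusted p = 0.135, 0.133, 0.0899, 0.122, 0.0743 and 0.136, edgeR), with no filter on low counts (adjusted p = 0.0599, edgeR) and with the size factors of DESeq2 (adjusted p = 0.0514, edgeR). Sulf2, an extracellular sulfatase, fell in SC by 0.25 on the log2 scale (adjusted p = 0.0337, edgeR), and lost the call, with log2 fold changes of -0.21, -0.23, -0.25 and -0.22, without CBP-ifKO 1 or 2 or control 1 or 3 (adjusted p = 0.151, 0.142, 0.0672 and 0.144, edgeR). The lysosomal sulfatases Ids and Arsb had log2 fold changes of 0.05 and 0.08 in SC and 0.11 and -0.03 in EE without a call.

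In the class II list of Cd74, 1 of 7 was called in SC and 0 in EE (edgeR; 2 at an unadjusted p under 0.05, 0 by DESeq2). It was H2-DMa, a subunit of the peptide-loading chaperone, which fell by 0.42 on the log2 scale (SE 0.09, adjusted p = 0.0236, edgeR). The call was lost without CBP-ifKO 1 or 2 or control 1 or 3 (adjusted p = 0.0975, 0.101, 0.0516 and 0.113, edgeR). In EE it had -0.35 (adjusted p = 0.122, edgeR), and was called with all 12 mice in the fit (adjusted p = 0.049, edgeR) and with no filter on low counts (adjusted p = 0.0396, edgeR). The sum of the 5 microglial markers was also lower in SC CBP-ifKOs, with 154, 154 and 138 CPM beside 166, 159 and 163 CPM in SC controls, and the part of microglia in the H2-DMa values was not tested. The protease gene Ctss had log2 fold changes of 0.00 in SC and 0.06 in EE.

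In heparan sulfate synthesis, the pathway of Ndst1, 1 of 9 rose in SC and 1 fell in EE, both of them paralogs of Ndst1. Ndst2 had a log2 fold change of 0.30 in SC (adjusted p = 0.0358, edgeR) and 0.29 in EE (adjusted p = 0.067, edgeR), and lost the SC call without CBP-ifKO 1, 2 or 3 or control 1 or 3 (adjusted p = 0.134, 0.0855, 0.111, 0.0665 and 0.12, edgeR) and with no filter on low counts (adjusted p = 0.0533, edgeR). A replicate block also ended the SC call (0.30, adjusted p = 0.0502, edgeR). With all 12 mice in the fit Ndst2 was called in EE (0.28, adjusted p = 0.0223, edgeR). Ndst3 had -0.37 in EE (adjusted p = 0.0168, edgeR) and -0.15 in SC (adjusted p = 0.234, edgeR), and lost the EE call without CBP-ifKO 2 or 3 or control 3 (adjusted p = 0.06, 0.0908 and 0.0726, edgeR).

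Of the 7 polymerase I genes and treacle partners beside Tcof1, 0 were called in SC (edgeR; 4 at an unadjusted p under 0.05, 0 by DESeq2) and 1 in EE. Ubtf, a transcription factor of ribosomal genes, had -0.22 in EE (adjusted p = 0.048, edgeR), and lost the call without CBP-ifKO 1, 2 or 3 or control 1 or 3 (adjusted p = 0.169, 0.108, 0.149, 0.127 and 0.159, edgeR). A replicate block also ended the EE call (-0.22, adjusted p = 0.0525, edgeR). In SC Ubtf had -0.19 (adjusted p = 0.0911, edgeR), and was called without control 2 (-0.22, adjusted p = 0.0246, edgeR) and with no filter on low counts (-0.20, adjusted p = 0.0428, edgeR).

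Of the 5 platelet-derived growth factors and receptors beside Pdgfrb, 2 fell in SC and 1 in EE. Pdgfb, the ligand of Pdgfrb, fell from 27.2 ± 2.97 to 20.2 ± 1.79 CPM in SC and from 29.3 ± 1.39 to 19 ± 2.25 CPM in EE (SD, n = 3; adjusted p = 0.0236 and 0.00464, edgeR). Its SC call was lost without CBP-ifKO 2 or 3 or control 1 or 3 (adjusted p = 0.0836, 0.104, 0.0784 and 0.0611, edgeR). Pdgfra, the receptor on oligodendrocyte precursors, had a log2 fold change of -0.38 in SC (adjusted p = 0.0256, edgeR) and -0.12 in EE (adjusted p = 0.461, edgeR), and its SC call was lost without CBP-ifKO 1 or 2 or control 3 (adjusted p = 0.0888, 0.107 and 0.0651, edgeR). The sum of the 5 endothelial markers, led by Slco1a4 with none at 0, was 212, 210 and 208 CPM in SC controls and 190, 178 and 181 CPM in SC CBP-ifKOs, without overlap. In EE it was 206, 189 and 190 CPM in controls and 198, 205 and 197 CPM in CBP-ifKOs, and the part of vascular cells in the values of this list was not tested.

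Of the 10 transporters related to Slc6a7, 9 passed the filter and 0 were called by edgeR in SC (2 at an unadjusted p under 0.05, 0 by DESeq2) or in EE (2 at an unadjusted p under 0.05, 2 by DESeq2). The amino acid transporter Slc6a17 and the taurine transporter Slc6a6 had log2 fold changes of -0.15 and -0.13 in SC and -0.18 and -0.13 in EE.

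The cell type markers gave 4 calls of 46 in SC (edgeR; 8.7%, beside 5.52% of all genes) and 1 in EE (2.17%, beside 4.57% of all genes), each of them lower in CBP-ifKOs. DESeq2 called 7 in SC and 4 in EE. The NMDA receptor subunit Grin2a had log2 fold changes of -0.32 in SC and -0.33 in EE (adjusted p = 0.00322 and 0.0252, edgeR), and lost the EE call without CBP-ifKO 1, 2 or 3 or control 3 (adjusted p = 0.107, 0.0612, 0.0966 and 0.0647, edgeR). The neuropeptide Sst of interneurons had -0.35 in SC (adjusted p = 0.0324, edgeR), and lost the call without CBP-ifKO 1, 2 or 3 or control 1 or 3 (adjusted p = 0.145, 0.122, 0.0537, 0.0896 and 0.13, edgeR). In EE Sst had -0.30 and was not called (adjusted p = 0.0873, edgeR), but it was called by DESeq2 (adjusted p = 0.00791), with no filter on low counts (adjusted p = 3.64e-04, edgeR) and, at -0.41, without control 2 (adjusted p = 0.00486, edgeR). The 6 interneuron markers summed to 917, 851 and 904 CPM in SC controls and 816, 795 and 832 CPM in SC CBP-ifKOs. In EE the sum was 946, 889 and 870 CPM in controls and 855, 820 and 842 CPM in CBP-ifKOs. Neither housing showed overlap, but how often other sums of genes lie apart with 3 mice per group was not measured. Gad1 and Gad2 of that list had log2 fold changes of -0.09 and -0.08 in SC and -0.07 and -0.05 in EE without a call. Vip of the same list, named after its values were seen, had 0.17 in SC and 0.25 in EE without a call. The part of interneurons in the Sst values was not tested. The pericyte gene Rgs5 had -0.35 in SC (adjusted p = 0.0142, edgeR), and lost the call without CBP-ifKO 2 or 3 or control 3 (adjusted p = 0.0669, 0.0747 and 0.0592, edgeR). The 5 astrocyte markers summed to 1515, 1653 and 1477 CPM in SC controls and 1446, 1425 and 1431 CPM in SC CBP-ifKOs. In EE the sum was 1445, 1490 and 1497 CPM in controls and 1323, 1292 and 1365 CPM in CBP-ifKOs, again without overlap. Of these 5 markers 0 were called by edgeR in either housing, and DESeq2 called 0 in SC and 1 in EE.

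The choroid plexus gene Ttr had a log2 fold change of -1.70 in SC (adjusted p = 2.20e-05, edgeR), and with all 12 mice in the fit it had the same value with an adjusted p of 0.521 (edgeR). In EE it stood at 1128 CPM in control 1 against between 4.05 and 32.3 CPM in the other 11 mice, SC included. The EE log2 fold change was -4.28 (adjusted p = 0.122, edgeR), 0.49 without that mouse (adjusted p = 0.725, edgeR) and -2.31 with a replicate block (adjusted p = 0.184, edgeR). It was called with all 12 mice in the fit (-4.29, adjusted p = 0.0446, edgeR) and with no filter on low counts (-4.30, adjusted p = 1.12e-70, edgeR). The sum of the 5 choroid plexus markers was 1242 CPM there against between 34.8 and 62.1 CPM elsewhere. That mouse had 4.37 CPM of Esr1, 0.698 CPM of Arsi and 4014 CPM of Camk2a, and its Arsi value was the lowest of the 6 controls.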

How the data were processed

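The authors trimmed 50-base single-end reads with Trim Galore 0.6.4, aligned them with STAR 2.6.1 to GRCm38, kept alignments above their mapping quality limit and counted reads on exons with Rsubread. Their deposited table gives raw counts and a length for each gene, with the runs of a mouse merged. Whether counting used strand is not given in the sources used here. Of 55471 genes, 55144 matched a symbol and position in GENCODE vM21.

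The 10 genes and the lists were chosen with earlier results of these data known. Named genes are these 10, Crebbp and Ep300, the called and nearest genes of the region, called list genes with up to 3 uncalled ones of highest level, and the 5 genes nearest to Esr1 and to Arsi. Genes outside this rule are marked as named after their values were seen. The count of list genes leaves out the cell type markers, a choice made after both counts had been seen: with the markers it is 16 in SC and 10 in EE.

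Tests used edgeR 4.0.16 under R 4.3.3 (filterByExpr, TMM, quasi-likelihood F test, Benjamini-Hochberg at 0.05). Genotypes were compared in the 6 mice of a housing, and housing in all 12 with 1 coefficient per group. Levels per kilobase used the deposited lengths. The procedure was tested on simulated data. Alternatives were DESeq2 1.42.0, its size factors, other filters, CBP-ifKO counts divided by 2, the replicate block, other sets of mice, a window of 500 kb and leaving out each mouse.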

Additional observations from a re-analysis of the deposited data

How the results depend on the processing

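The genotype differences of Esr1 (3.86 to 4.11 in SC, 3.99 to 4.29 in EE) and Arsi (2.46 to 2.79 and 2.45 to 2.79) kept within these ranges over the 13 alternatives run. Dividing the CBP-ifKO counts by 2 also divides their totals by 2, so that alternative could hardly move these differences. Without a filter on low counts, the number of the 10 genes called was 1 for EE against SC in CBP-ifKOs and 1 in the interaction, both Cd74, the number of other genes of the region in SC was 1 (Synpo), and the number of list genes in EE was 21. DESeq2 gave 2 genes of the region and 14 list genes in EE, and all 12 mice in the fit gave 2 and 15; the causes were not tested. Leaving out 1 mouse gave between 3 and 20 list genes in SC, between 5 and 9 in EE, and between 1 and 2 genes of the region in EE.

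Mice with the same replicate number had deviations that correlated between -0.047 and 0.305, above 0.1 in 5 of the 12 pairs and highest between controls 1 (0.191) and 2 (0.305) of SC and EE. Since not every pair was above 0.1, and not every mouse correlated best with its own number, the numbers were not taken as pairing. With a replicate block, 0 of the 10 genes were called in any housing test, 11 and 12 list genes were called in SC and EE, and 1 gene of the region in EE. The block ended the calls of Ndst2 in SC (adjusted p = 0.0502, edgeR), Sgsh in SC and EE (0.051 and 0.0515) and Ubtf in EE (0.0525), and gave -2.31 for Ttr in EE without a call. The log2 fold changes of the lost calls were 0.30, 0.48, 0.47 and -0.22 under the block, the same as in the main fit. The block added calls of 1 list gene in SC and 5 in EE, Camk2d in both, and of 2 markers in SC and 2 in EE, Sst (0.0338) among the latter.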
